A study of Homo sapiens with 2 samples.

Results

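The Polycomb and histone methylation regulators are 59 genes chosen as a list. They comprise 34 Polycomb group genes, 13 other histone methyltransferases, 11 histone demethylases and the corepressor gene TRIM28. Their transcripts were measured in Huh-7, an established human hepatocellular carcinoma line, on 1 array of cells transfected with siRNA against DEPDC1 and 1 array of cells given NC, which the labels call a control. Both cultures were collected 72 h after transfection, and both were labelled as biological replicate 1. The sequence and number of the siRNAs are not given in the sources used here. A gene's value was that of its brightest single-gene probe set, by the mean over both arrays, and a difference is always the log2 value of the siRNA array minus that of the NC array. Of the 59 genes, 53 had a probe set of their own among 18417 such genes on the array, and 51 were detected among 11352 detected genes. A gene counted as detected when its higher value reached 4.66, the median of all deposited values, a convention rather than a measured background.

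Because each group had 1 array, no difference has a replicate check and no test was possible. The list was drawn up with SCML2 already known to differ, from the same contrast, so the differences below are a description of these 2 arrays. In bulk RNA, fewer cells of a kind and less RNA per cell cannot be told apart.

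Polycomb proteins keep developmental genes silent. Polycomb repressive complex 2 (PRC2) methylates lysine 27 of histone H3 through EZH1 or EZH2, and PRC1 ubiquitinates histone H2A through RING1 or RNF2. Other methyltransferases and demethylases write and remove methyl groups on further lysines of histones H3 and H4, some of them marks of active genes and others of silent chromatin. EZH2 is often abundant in dividing and tumour cells, and hepatocellular carcinoma is among the tumours in which it has been studied.

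The arrays gave nearly the same distribution of values, since their sorted values were nowhere more than 0.0997 apart, and Pearson's r between them was 0.989 over probe sets (no replicates of each other). DEPDC1, the siRNA target, had a log2 value of 5.15 in the siRNA array and 7.82 in the NC array, a difference of -2.67. Of 20 hepatocyte markers, 17 were detected, with a mean log2 value of 8.27 in the siRNA array and 8.98 in the NC array. Those at least 2-fold lower by measured values were AFP, SERPINA1, APOC3, APOB, AHSG, CEBPA and TF, and TTR was at least 2-fold higher. The siRNA value of AHSG was under the threshold, which makes it at least 1.82-fold lower. ALB, the gene of serum albumin and named after its value was seen, had 11.39 in the siRNA array and 11.89 in the NC array, and AFP, the gene of alpha-fetoprotein, had 8.92 in the siRNA array and 10.89 in the NC array. Of 14 fibroblast and stellate cell markers, 6 were detected, with a mean of 6.91 in the siRNA array and 5.97 in the NC array. Against the same 1.94% of all detected genes, 3 of the 6 were at least 2-fold higher. They were LUM with a difference of 2.31, FBN1 with 2.19 and COL1A2 with 1.07. The remaining detected markers of this list, COL1A1, COL3A1 and PDGFRA, differed by 0.06, -0.04 and 0.09. The 8 markers not detected, DCN, PDGFRB, THY1, POSTN, ACTA2, FAP, LRAT and RGS5, lay under the threshold in both arrays. Of the endothelial markers 2 of 10 and of the immune markers 3 of 12 were detected, LYZ being at least 2-fold higher with a difference of 1.20. The part of these marker differences in the values below was not tested.

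As a whole the chosen genes differed about as much as other genes, and 3 of them passed 2-fold. SCML2 was at least 2-fold lower and SETD7 and KDM4A were at least 2-fold higher in the siRNA array, so that 3 of the 51 detected genes (5.88%) passed 2-fold, against 2.8% of all detected genes. With median centring or quantile normalization KDM4A was just short of 2-fold, and the share was 2 of 51 (3.92%), against 2.69% and 2.79% of all detected genes. SCML2 was counted in these shares of the chosen genes although the list was drawn up with its difference known, which raises them. Without SCML2, the genes past 2-fold were SETD7 and KDM4A, or SETD7 alone with median centring or quantile normalization. Whether the chosen genes hold an excess was not tested. The share at least 2-fold lower over all detected genes was 0.863% and the share at least 2-fold higher 1.94%. At 1.5-fold the count stayed at the same 3 genes, whereas 9.77% of all detected genes passed that fold, 6.03% higher and 3.74% lower. The other 48 genes lay between -0.55 and 0.53. The median difference was 0.01 over the 51 genes and 0.00 over all detected genes. The median size of the difference, without its sign, was 0.171 for the chosen genes and 0.191 for all detected genes. A lower value in the siRNA array was found for 24 of the 51 genes, which is 47.1%, against 48.1% of all detected genes. A higher value was found for the other 27, against 49.9% of all detected genes.

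**Figure D1:**
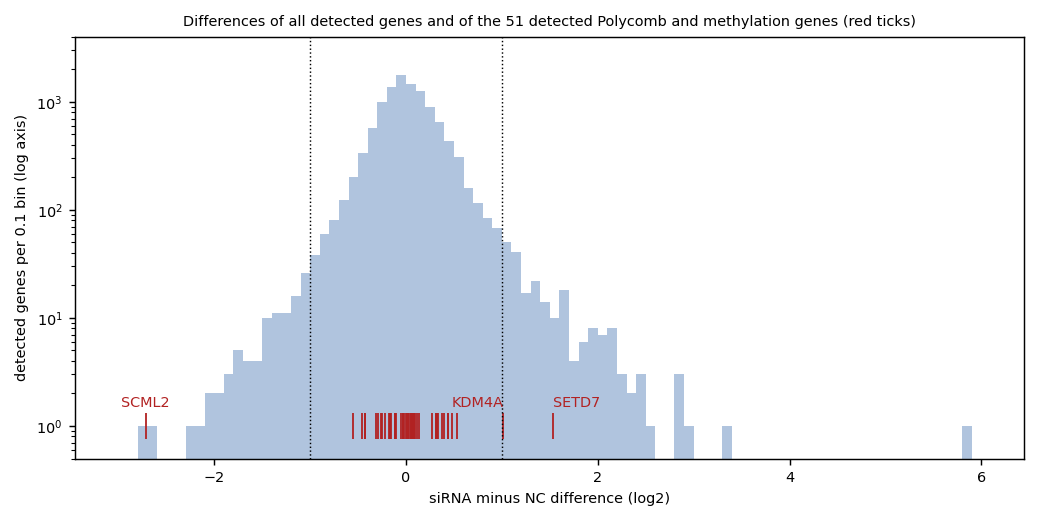
Differences of the log2 values, siRNA minus NC, for all 11352 detected genes (pale blue histogram, log count axis) with the 51 detected Polycomb and methylation genes as red ticks. Dotted lines mark 2-fold. SCML2 at -2.71 lies at the lower end of the whole distribution, KDM4A and SETD7 lie beyond 2-fold on the upper side, and the other ticks lie between -0.55 and 0.53.

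Different probe sets of the same gene give a rough gauge of how far a value depends on the probe set. They can also read different transcripts or copies of a gene. Among 392 genes whose detected probe sets, at least 2, did not hold identical values, the range of the differences had a median of 0.116 and a 90th percentile of 0.445 on the log2 scale. Of the 51 genes, 19 differed by less than that median and 7 by more than that 90th percentile. These 7 were SCML2, SETD7 and KDM4A, and with smaller differences MTF2, PHF1, KDM2B and KDM3A. KDM3A was the smallest of the 7 in size, and 16.6% of all detected genes differed by at least as much. SUV39H1, at -0.12, lay just past that median, and 67.5% of all detected genes differed by at least as much. The gauge holds no variation between cultures.

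**Figure D2:**
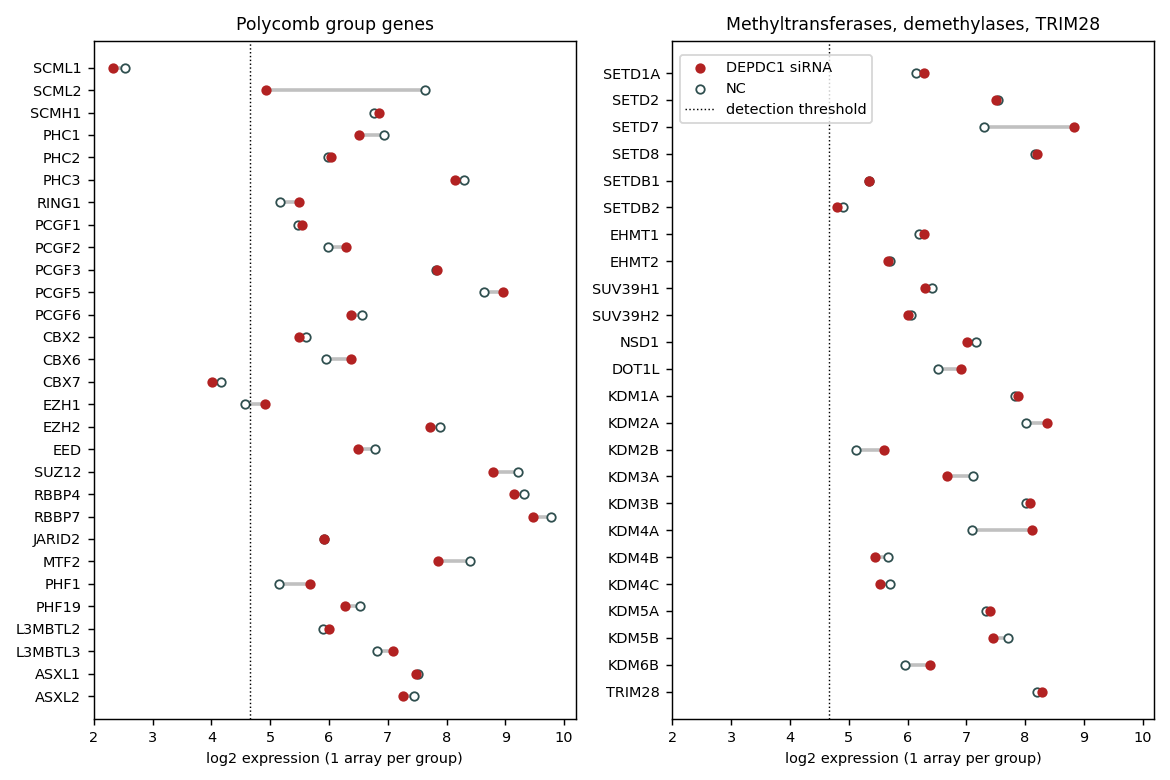
Log2 expression of the 53 measured genes in the DEPDC1 siRNA array (filled red) and the NC array (open), joined by a grey line, with Polycomb genes on the left and the other genes on the right. The dotted line is the detection threshold. The long lines are those of SCML2, SETD7 and KDM4A, and SCML1 and CBX7 lie under the threshold in both arrays.

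SCML2 encodes a Polycomb protein with MBT repeats and a SAM domain that associates with PRC1. Its log2 value was 4.92 in the siRNA array and 7.64 in the NC array, a difference of -2.71 or 6.57-fold lower. This was the lowest difference of all 11352 detected genes, followed by that of DEPDC1 itself, and the siRNA value stayed above the threshold. SCMH1, which encodes a related protein with MBT repeats and a SAM domain, had 6.86 in the siRNA array and 6.77 in the NC array, a difference of 0.09. SCML1, the other relative, was under the threshold in both arrays with 2.32 in the siRNA array and 2.54 in the NC array. The differences of SCML2 and SCMH1 lay 2.81 apart on the log2 scale. SCML2 had 1 probe set, so no other probe set could be set beside it.

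SETD7 encodes a lysine methyltransferase that monomethylates lysine 4 of histone H3 and also modifies other proteins. Its log2 value was 8.83 in the siRNA array and 7.30 in the NC array, a difference of 1.53 or 2.89-fold higher. Of all detected genes, 0.846% differed by at least that much in either direction. KDM4A encodes a demethylase of lysines 9 and 36 of histone H3, and it had 8.11 in the siRNA array and 7.10 in the NC array. Its difference of 1.01, 2.02-fold higher, was just past 2-fold, and 2.68% of detected genes differed by at least as much. It was 0.95 with each array centred on its median over detected genes and 0.99 after quantile normalization, both just short of 2-fold. SETD7 and KDM4A each had 1 probe set as well.

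The promoter windows of the 3 genes with the largest differences and of SUZ12, the PRC2 core gene with the largest decrease, are shown to place these genes beside the sequence in front of their starts. Each is the 250 bases before the gene start in RefSeq (GRCh38.p14), read 5′ to 3′ on the gene's strand. Capitals mark matches on either strand to the CCAAT box (CCAAT), the GC box (GGGCGG) or an E2F-type word (TTTGGCGC, TTTCCCGC, TTTCGCGC or TTTGCCGC).
SCML2 (chrX:18354689-18354938, - strand): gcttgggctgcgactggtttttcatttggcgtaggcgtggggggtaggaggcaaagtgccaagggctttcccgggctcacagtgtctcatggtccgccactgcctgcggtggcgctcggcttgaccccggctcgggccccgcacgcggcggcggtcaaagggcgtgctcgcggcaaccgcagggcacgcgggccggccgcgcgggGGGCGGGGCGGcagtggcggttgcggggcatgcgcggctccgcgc
SETD7 (chr4:139556220-139556469, - strand): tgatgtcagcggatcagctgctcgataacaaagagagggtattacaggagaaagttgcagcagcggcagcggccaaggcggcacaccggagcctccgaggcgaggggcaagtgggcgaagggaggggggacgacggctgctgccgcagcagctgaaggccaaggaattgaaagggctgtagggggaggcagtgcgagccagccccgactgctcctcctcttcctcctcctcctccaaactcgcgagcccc
KDM4A (chr1:43649899-43650148, + strand): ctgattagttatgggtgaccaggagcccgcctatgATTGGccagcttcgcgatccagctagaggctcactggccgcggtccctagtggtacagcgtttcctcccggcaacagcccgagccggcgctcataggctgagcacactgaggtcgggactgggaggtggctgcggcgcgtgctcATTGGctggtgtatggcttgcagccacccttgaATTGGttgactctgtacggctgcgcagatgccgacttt
SUZ12 (chr17:31936757-31937006, + strand): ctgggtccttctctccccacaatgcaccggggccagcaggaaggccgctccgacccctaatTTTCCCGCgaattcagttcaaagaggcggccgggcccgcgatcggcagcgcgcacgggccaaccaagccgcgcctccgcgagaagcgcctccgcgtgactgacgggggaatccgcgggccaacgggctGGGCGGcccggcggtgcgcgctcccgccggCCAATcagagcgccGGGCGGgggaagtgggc

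The 4 windows held different matches, and no match to one motif overlapped a match to another. SCML2 had 2 GC boxes that overlap each other, no CCAAT box and no E2F-type word, with 33 CpG dinucleotides and 74% G and C. SETD7 had none of the 3 motifs, 16 CpG and 64% G and C. KDM4A had 3 CCAAT boxes, 17 CpG and 61.2% G and C. SUZ12 had 1 E2F-type word, 1 CCAAT box, 2 GC boxes and 34 CpG.

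RefSeq windows were found for 54 of the 59 genes, 84 windows in all because some genes have several starts. They had a median of 24 CpG and 70.4% G and C, whereas all 35116 windows of the table, of 27305 genes, had medians of 11 CpG and 58% G and C. A GC box was present in 73.8% of the windows of the chosen genes and in 42.6% of all windows. A CCAAT box was present in 36.9% of the windows of the chosen genes and in 32.0% of all windows. An E2F-type word was present in 3.57% of the windows of the chosen genes, those of EZH1, PHF19 and SUZ12, and in 2.79% of all windows. The table also holds windows of genes that do not code for proteins, so these shares describe the table. They are letters in a window and not binding sites.

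The neighbours of the 3 genes on their chromosomes were set beside them, as the 3 nearest detected protein-coding genes on each side in RefSeq order. Around SCML2 on chromosome X, all 6 neighbours had lower values in the siRNA array, as did 48.1% of all detected genes. The differences ran from -0.02 for SYAP1 to -0.56 for PHKA2, a phosphorylase kinase subunit. The median size over all detected genes was 0.191. None came near the -2.71 of SCML2. RBBP7, a PRC2 core gene, was the nearest of them on one side, at -0.31. It lay 6 protein-coding genes away, and PHKA2, the nearest on the other side, 4 away. The protein-coding genes in between were not detected or had no probe set of their own. Next to SETD7 on chromosome 4, MGST2, a microsomal glutathione transferase, had 7.55 in the siRNA array and 8.56 in the NC array, a difference of -1.01 and thus of the opposite sign. RAB33B, the neighbour on the other side, differed by -0.19, NAA15 by -0.49, NDUFC1 by -0.01, SCOC by -0.05 and MAML3, the 1 higher neighbour, by 0.11. Next to KDM4A on chromosome 1, PTPRF, a receptor tyrosine phosphatase, had 8.21 in the siRNA array and 7.21 in the NC array, a difference of 0.998 and close to that of KDM4A. HYI, the next gene beyond PTPRF, differed by 0.63 and MED8 by 0.00. On the other side of KDM4A, ST3GAL3 differed by 0.31, IPO13 by 0.27 and DPH2, the 1 lower neighbour, by -0.17. Over all detected genes 49.9% were higher and 48.1% lower, and whether neighbours changed together was not tested.

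With the probe sets used, the remaining detected PRC1 genes differed by at most 0.44 in size. None of them passed 1.5-fold, against 9.77% of all detected genes. RING1, a catalytic ubiquitin ligase of PRC1, had 5.48 in the siRNA array and 5.16 in the NC array, a difference of 0.32. A second probe set of RING1 gave the same difference of 0.32, although probe sets with nearly the same accessions may share probes. RNF2, the other ligase, had no probe set here. Among the PHC genes, whose products polymerize through SAM domains, PHC1 had 6.51 in the siRNA array and 6.93 in the NC array, a difference of -0.43. PHC2 differed by 0.06 and PHC3 by -0.16. The 2 probe sets of PHC1 held identical values, so they count as 1 measurement. For PHC3 a second, dimmer probe set with 1 accession had 4.11 in the siRNA array and 4.83 in the NC array, a difference of -0.72, so the size for PHC3 depends on the probe set.

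The PCGF genes encode the subunits that set one PRC1 assembly apart from another. PCGF5 had 8.95 in the siRNA array and 8.64 in the NC array, a difference of 0.31. PCGF2, which encodes MEL18, had 6.29 in the siRNA array and 5.98 in the NC array, also a difference of 0.31. PCGF1 differed by 0.06 and PCGF3 by 0.02. PCGF6 differed by -0.17 with the probe set used and by 0.26 with its other probe set, so it has no settled sign. BMI1, the sixth PCGF gene, is listed only on a probe set that names another gene as well and has no value here.

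CBX proteins bring canonical PRC1 to histone H3 methylated on lysine 27. CBX6 had 6.38 in the siRNA array and 5.94 in the NC array, a difference of 0.44. CBX2 had 5.50 in the siRNA array and 5.61 in the NC array, a difference of -0.11. CBX7 lay under the threshold in both arrays, with 4.01 in the siRNA array and 4.17 in the NC array, and CBX8 had no probe set here. Counting the SCM, PHC, RING, PCGF and CBX genes together, 8 of 13 detected genes had a higher value and 5 a lower value in the siRNA array. Over all detected genes, 49.9% were higher and 48.1% lower. The median difference of the 13 genes was 0.06. SCML2 was the 1 gene at least 2-fold different, 7.69% of the 13, against 2.8% of all detected genes. Its difference was known when the list was drawn up.

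The core of PRC2 was slightly lower in the siRNA array for 5 of its 6 genes, with a median of -0.23 against 0.00 over all detected genes, of which 48.1% were lower. None of the 6 passed 1.5-fold. SUZ12, the scaffold subunit, had 8.80 in the siRNA array and 9.22 in the NC array, a difference of -0.42. RBBP7, a histone-binding subunit, had 9.47 in the siRNA array and 9.78 in the NC array, a difference of -0.31. EED, which binds methylated lysine 27, had 6.50 in the siRNA array and 6.79 in the NC array, a difference of -0.29. EZH2, the catalytic subunit of dividing cells, had 7.72 in the siRNA array and 7.89 in the NC array, a difference of -0.17. RBBP4, the other histone-binding subunit, differed by -0.16.

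EZH1, the alternative catalytic subunit, was the exception. It had 4.91 in the siRNA array and 4.57, which is below the threshold, in the NC array, a measured difference of 0.34 and at least 1.19-fold higher against the threshold. Each of these PRC2 differences lies under 0.445, the 90th percentile of the gauge between probe sets.

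Beside the PRC2 core genes, 32 of 37 genes of DNA replication and mitosis also had lower values in the siRNA array, with a median of -0.26, against 48.1% lower and a median of 0.00 over all detected genes. In that list NUSAP1, a spindle protein, had 7.74 in the siRNA array and 8.93 in the NC array, a difference of -1.20. MKI67, the proliferation marker Ki-67, had 8.45 in the siRNA array and 9.51 in the NC array, a difference of -1.06. CCNE2, cyclin E2, differed by -0.82 and KIF11, a mitotic kinesin, by -0.70. Of the 5 higher genes, GINS2, a replication fork subunit named after its value was seen, differed most, by 0.52. The part of these genes in the PRC2 values was not tested.

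The accessory subunits of PRC2 went both ways. MTF2, PHF1 and PHF19 encode the Polycomb-like proteins, which help PRC2 to bind chromatin. MTF2 had 7.85 in the siRNA array and 8.40 in the NC array, a difference of -0.55, the lowest among the 27 detected Polycomb genes of the list after SCML2. PHF1 had 5.67 in the siRNA array and 5.14 in the NC array, a difference of 0.53, the highest among those 27. PHF19 had 6.27 in the siRNA array and 6.53 in the NC array, a difference of -0.26. The differences of PHF1 and MTF2 lay 1.08 apart on the log2 scale. JARID2, which encodes a substoichiometric subunit that recruits PRC2, differed by 0.00.

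The other Polycomb group genes differed by at most 0.27 in size. L3MBTL3, which encodes an MBT-repeat protein, had 7.09 in the siRNA array and 6.82 in the NC array, a difference of 0.27. L3MBTL2, a subunit of a variant PRC1, differed by 0.11. ASXL1 and ASXL2, cofactors of the deubiquitinase BAP1, differed by -0.03 and -0.17. BAP1 had no probe set here, and EPC1, a gene of the NuA4 acetyltransferase complex, is listed only on a probe set that also names ASXL2. Over all 27 detected Polycomb genes, 14 were lower and 13 higher, against 48.1% lower and 49.9% higher over all detected genes. The median of the 27 was -0.03. That median has no settled sign, since it was -0.17 with detection at the 75th percentile and 0.0041 with the mean over probe sets. Without SCML2 the count was 13 lower and 13 higher and the median -0.02.

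Of the 12 detected methyltransferases outside Polycomb, 6 had a higher and 6 a lower value, with a median of -0.01, and SETD7 was the 1 past 1.5-fold. That is 8.33% of them, against 9.77% of all detected genes, of which 49.9% were higher and 48.1% lower. DOT1L, which methylates lysine 79 of histone H3, had 6.91 in the siRNA array and 6.51 in the NC array, a difference of 0.39. NSD1, which dimethylates lysine 36, had 7.004 in the siRNA array and 7.17 in the NC array, a difference of -0.17. SETD2, which trimethylates lysine 36, differed by -0.02, and SETD1A, a catalytic subunit of a COMPASS complex that methylates lysine 4, by 0.14. ASH1L had no probe set here.

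The 6 methyltransferases of lysine 9 of histone H3, the mark of silent heterochromatin, lay close to 0, between -0.12 and 0.08. SUV39H1 had 6.30 in the siRNA array and 6.41 in the NC array, a difference of -0.12. EHMT1, known as GLP, had 6.28 in the siRNA array and 6.20 in the NC array, a difference of 0.08. Its partner EHMT2, known as G9a, differed by -0.03, SUV39H2 by -0.05, SETDB1 by 0.01 and SETDB2 by -0.10. TRIM28, known as KAP1, the corepressor through which SETDB1 is brought to zinc finger proteins, had 8.29 in the siRNA array and 8.20 in the NC array, a difference of 0.09. SETD8, now named KMT5A, which monomethylates lysine 20 of histone H4, differed by 0.03. Its 3 probe sets gave 0.03, -0.02 and -0.15, and those at 0.03 and -0.02 are listed with equal numbers of accessions. Such duplicate probe sets may read a copy of the gene, so the value used may not be that of SETD8 alone.

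Of the 11 demethylases, 7 had a higher and 4 a lower value in the siRNA array, with a median of 0.06, and KDM4A was the 1 past 1.5-fold. That is 9.09% of them, against 9.77% of all detected genes, of which 49.9% were higher. KDM4B and KDM4C, its close relatives, had slightly lower values in the siRNA array. Of all detected genes, 44.3% differed by at least as much as KDM4B and 52.6% by at least as much as KDM4C. KDM4B had 5.44 in the siRNA array and 5.66 in the NC array, a difference of -0.22. KDM4C had 5.53 in the siRNA array and 5.71 in the NC array, a difference of -0.18. The difference of KDM4A lay 1.23 above that of KDM4B and 1.19 above that of KDM4C on the log2 scale.

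KDM2B, which recruits a variant PRC1 to unmethylated CpG islands and demethylates lysine 36, had 5.61 in the siRNA array and 5.13 in the NC array, a difference of 0.48. Its paralog KDM2A had 8.38 in the siRNA array and 8.01 in the NC array, a difference of 0.37. KDM6B, known as JMJD3, which removes methyl groups from lysine 27, had 6.39 in the siRNA array and 5.95 in the NC array, a difference of 0.44. KDM3A, a lysine 9 demethylase known to be induced in hypoxia, had 6.67 in the siRNA array and 7.12 in the NC array, a difference of -0.45, and its paralog KDM3B differed by 0.06. Among the lysine 4 demethylases, KDM5B differed by -0.26, KDM5A by 0.08 and KDM1A, known as LSD1, by 0.05.

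**Figure D3:**
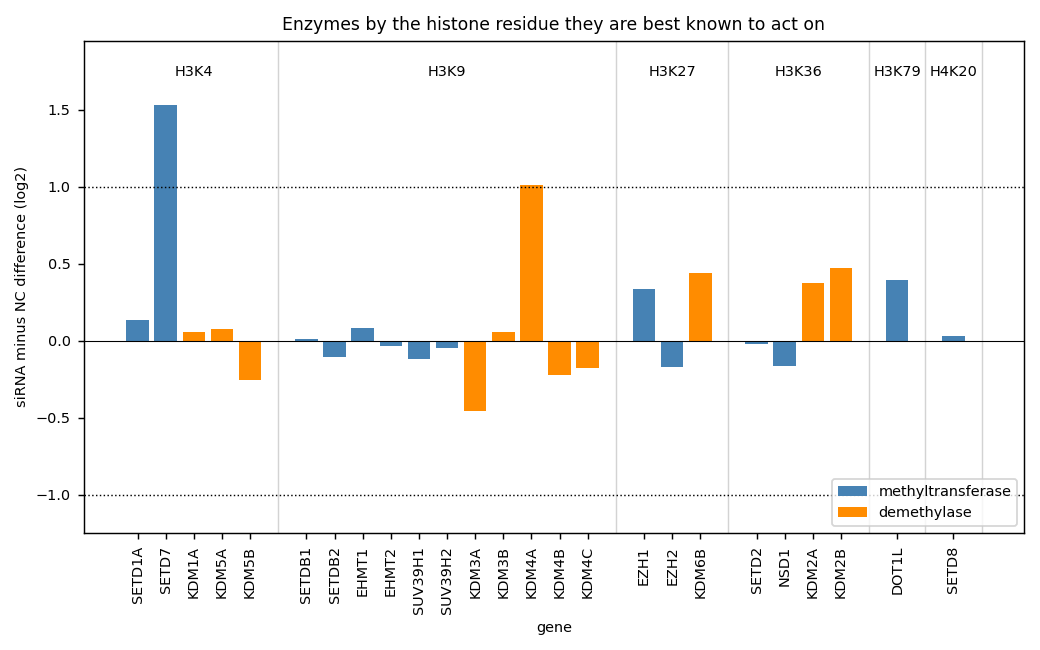
Difference of the log2 value, siRNA minus NC, of each detected enzyme (bars), grouped by the histone residue it is best known to act on, with methyltransferases in blue and demethylases in orange. Dotted lines mark 2-fold. SETD7 and KDM4A are the bars past 2-fold, and the 6 lysine 9 methyltransferases of the list lie between -0.12 and 0.08.

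Other genes of the same complexes and enzyme families, outside the list of 59, were counted in the same way, against the 2.8% of all detected genes that passed 2-fold. In lists of this size a count of 0 or 1 is close to that share. Among 20 detected further Polycomb subunits, none was 2-fold different and the median was -0.04. In this list 10 were higher and 10 lower, against 49.9% and 48.1% of all detected genes. FBRS, a subunit of variant PRC1, had 5.79 in the siRNA array and 5.14 in the NC array, a difference of 0.66. HDAC1, a histone deacetylase, differed by 0.48, E2F6, a repressive E2F of variant PRC1, by -0.45 and YAF2 by -0.39. Among 22 detected further lysine methyltransferases none was 2-fold different and the median was -0.01. MECOM had 7.09 in the siRNA array and 6.14 in the NC array, a difference of 0.94. PRDM16 differed by -0.38, SMYD5 by 0.27 and SETD1B by 0.22.

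Among 12 detected further lysine demethylases, KDM7A was the 1 gene at least 2-fold different, and the median was 0.06. KDM7A, which removes methyl groups from lysines 9 and 27, had 5.92 in the siRNA array and 7.12 in the NC array, a difference of -1.20. KDM1B differed by 0.43, JMJD6 by 0.31 and JMJD1C by -0.22. Of 13 detected partners of COMPASS and LSD1 none was 2-fold different. RCOR1, known as CoREST, the scaffold of LSD1, had 6.65 in the siRNA array and 7.33 in the NC array, a difference of -0.68. PHF21A differed by 0.39, HCFC1 by 0.29 and RBBP5 by 0.26. Of 14 detected heterochromatin readers and partners none was 2-fold different, and the median was 0.10. LRIF1 differed by 0.68 and CBX3, known as HP1 gamma, by -0.46. The NC values of WIZ and CDYL2 were under the threshold, and these genes were at least 1.36-fold and at least 1.31-fold higher.

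Genes that Polycomb is known to silence in other cells were mostly under the detection threshold in both arrays. Among all 18417 genes measured, 11352 passed the same threshold. That threshold is a convention, and whether Polycomb silences the listed genes here was not tested. Of 39 HOX genes, 27 had a probe set of their own and 7 were detected. Their differences lay between -0.16 and 0.19, with 6.32 in the siRNA array and 6.13 in the NC array for HOXC10. HOXB7 differed by 0.18, HOXC12 by -0.16 and HOXC8 by 0.10. Of 37 developmental regulators and cell cycle inhibitors known as Polycomb targets in other cells, 35 were on the array and 13 detected, none of them 2-fold different, with a median of 0.02. MEIS1, a homeobox gene, had 5.32 in the siRNA array and 4.60, under the threshold, in the NC array, and was at least 1.58-fold higher. CDKN2A differed by 0.50, CDKN2B by 0.35 and IRX3 by -0.33.

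**Figure D4:**
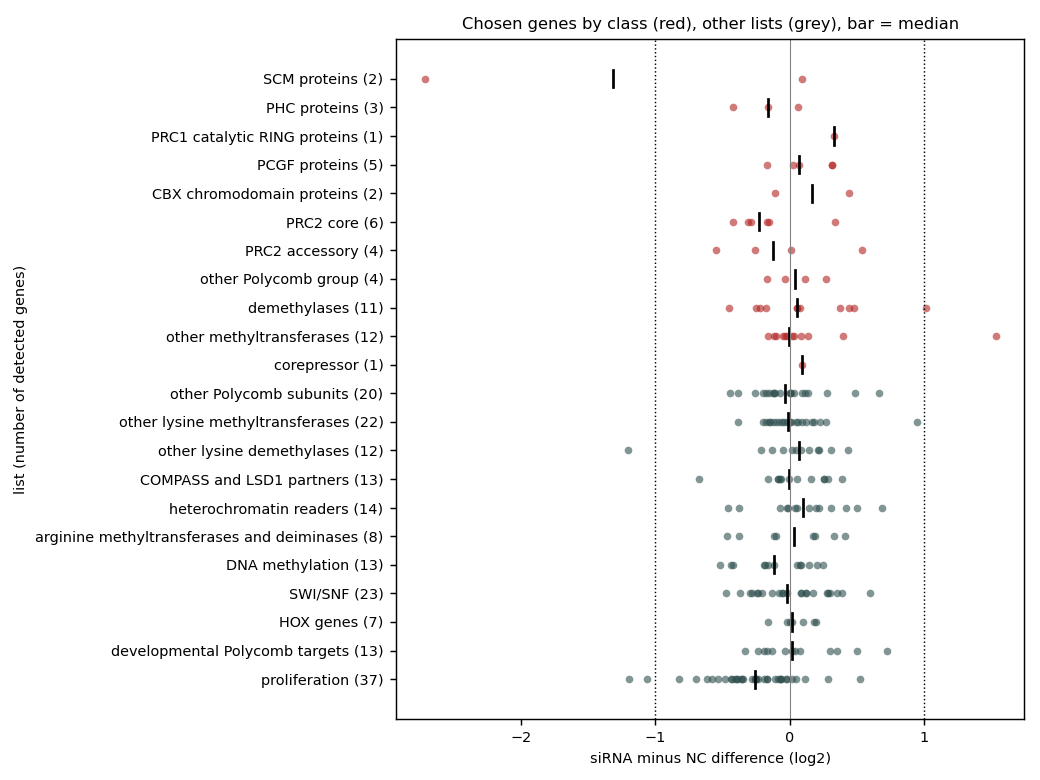
Difference of the log2 value, siRNA minus NC, of each detected gene (points), for the classes of the chosen genes (red) and for further lists (grey). Black bars are medians, and dotted lines mark 2-fold. The proliferation list has the lowest median of the grey lists at -0.26, the PRC2 core lies at -0.23, and SCML2, SETD7, KDM4A, KDM7A, NUSAP1 and MKI67 are the points past 2-fold.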

How the data were processed

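Total RNA of Huh-7 cells was labelled with biotin for Affymetrix arrays, per the labels' protocols. The submitters' processing notes name Transcriptome Analysis Console 3.0 and Affymetrix Expression Console without a role; background correction and normalization are not given in the sources used here. The authors' deposited values for 33297 probe sets ran from 1.39 to 12.7 and were taken as log2 expression, already normalized, and used unscaled. Background signal can compress the differences of dim genes.

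GEO's platform annotation gave the gene names (19460 with 1 gene, 1754 with several, 12083 with none listed), and 19429 were updated through Entrez identifiers to RefSeq symbols of GRCh38.p14. Probe sets of several genes were left out. Of 11352 detected genes, 225 had the same value in both arrays. Differences, counts past 2-fold and 1.5-fold, and medians were computed with pandas 2.3.3 and numpy 2.4.6, after a check on simulated data. With 1 array per group there was no test, and the number of arrays limits the precision.

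The 59 genes and all lists were chosen with earlier results of these data known. Named with values were those of the 59 genes at least 1.5-fold different, each class's 3 largest differences, others where their role is described, and from each further list the genes at least 2-fold different and up to 4 with the largest differences. Cell type markers at least 2-fold different were named, not all with values. Alternatives were 8 in number: the detection threshold at the 75th percentile or none, the mean over probe sets or the probe set with the smallest difference, median centring, quantile normalization, low values raised to the threshold, and 1.5-fold.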

Additional observations from a re-analysis of the deposited data

How the results depend on the processing

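The counts past 2-fold and the medians of the chosen genes, of their 3 main classes and of the further lists, and the lower tallies of all chosen genes, the PRC2 core and the proliferation list, were recomputed under up to 8 alternatives. Of 283 recomputed values, 270 stayed within 1.5 times of a count or within 0.116 of a median. The count of genes at least 2-fold higher was 1 in place of 2 with median centring and with quantile normalization, because KDM4A, the 1 demethylase counted, was then just under 2-fold and the demethylase count 0. With a threshold of 1.5-fold the counts were 1 in place of 0 for further Polycomb subunits (FBRS), further methyltransferases (MECOM), COMPASS and LSD1 partners (RCOR1), heterochromatin readers (LRIF1), SWI/SNF (BCL7B) and developmental Polycomb targets (MEIS1), and 5 in place of 2 for proliferation. The share of all detected genes past the threshold also rose, to 9.77% in place of 2.8%. With detection at the 75th percentile the Polycomb median was -0.17 in place of -0.03 and that of the arginine methyltransferases 0.18 in place of 0.03, and no HOX gene was left. The PRC2 core kept 5 lower genes under each, with medians from -0.29 to -0.23. With median centring 31 of the 51 chosen genes were lower in place of 24. That setting shifted all genes alike, and the median of all detected genes was then -0.06 in place of 0.00. Of 255 recomputed differences of single genes, 2 moved by more than 0.116, both with the mean over probe sets: PHC3 to -0.44 and PCGF6 to 0.04. Few could move that far. Median centring shifted each difference by -0.06, and the probe set settings could act only on the 6 genes with more than 1 probe set. Raising low values could act only on genes with a value under the threshold. The small count was therefore largely fixed by the settings. No difference of a gene past 2-fold changed its sign, which shifts of this size could hardly have done. SCML2 ranged from -2.77 to -2.70 and SETD7 from 1.47 to 1.53. No paired analysis was possible because each group has 1 array. Without replicates, none of these values speaks to variation between cultures, and without detection calls the signal over background is unknown.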

Other observations

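For 3 further lists of chromatin regulators, the counts past 2-fold are given against 2.8% of all detected genes, a share at which lists of this size would hold 1 gene or none. Of 23 detected SWI/SNF genes, whose remodelling complexes oppose Polycomb, none was 2-fold different and the median was -0.02. BCL7B had 6.89 in the siRNA array and 6.30 in the NC array, a difference of 0.60. ARID2 differed by -0.47, SMARCC2 by 0.39 and SMARCD3 by -0.37. SMARCA4, the ATPase known as BRG1, was named after its value was seen and differed by 0.27.

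Of 13 detected genes of DNA methylation none was 2-fold different and the median was -0.12. HELLS, a remodeller needed for DNA methylation, had 6.90 in the siRNA array and 7.42 in the NC array, a difference of -0.52. TET1, which oxidizes methylcytosine, differed by -0.44, DNMT3B, a de novo methyltransferase, by -0.42 and TET3 by 0.24. Of 8 detected arginine methyltransferases and their partners none was 2-fold different, with PRMT3 at -0.47, PRMT2 at 0.41, PRMT7 at -0.38 and PRMT5 at 0.32.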
